A study of Rattus norvegicus with 24 samples.

Results

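The SPARC family is a group of secreted matricellular proteins, which sit in the extracellular matrix and modulate how cells meet it without being structural parts of it. Its 8 members here were the rows of the count table named Sparcl1 (ENSRNOG00000015093), Sparc, Spock1, Spock2, Spock3, Smoc1, Smoc2 and Fstl1, out of 32883 genes, and all 8 were found. The set was chosen on measured values, because Sparcl1 was very low in the brain library of 1 exposed rat. The brain values of Sparcl1 and of its relatives in the exposed and sham rats are therefore given as description, with no test.

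The study sequenced messenger RNA of liver, brain, thymus and spleen from Sprague-Dawley rats aged 7 months. Each tissue had 3 libraries from rats labelled SAM-exposed and 3 from rats labelled Sham-exposed, 24 libraries in all. The exposure is called PCB (polychlorinated biphenyls) in the title of the series and SAM in the treatment label; no dose, route, duration or sex is given in the labels, and the exposed group is called SAM below. The animals carry numbers, SAM 1, 2, 3 and 5 and Sham 13 to 17, and the labels do not say outright that 1 number in several tissues is 1 rat. P-values measure the spread between these libraries.

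Sparcl1, also called hevin or SC1, is secreted mainly by astrocytes in the brain and helps excitatory synapses form. Sparc, also called osteonectin, binds collagen and in mice counteracts that action of Sparcl1. The relatives share an extracellular calcium-binding module or a follistatin-like module with them. Spock1, Spock2 and Spock3 encode testicans, proteoglycans found mostly in brain. Smoc1 and Smoc2 encode modular calcium-binding proteins of basement membranes that modulate BMP signalling (bone morphogenetic proteins), and Fstl1 encodes a follistatin-like glycoprotein that binds BMP ligands.

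The promoters of Sparcl1 and Sparc are shown because Sparcl1 is the member that was very low and Sparc is its closest relative. Both come from RefSeq on the rat build GRCr8, run 5′ to 3′ on the gene's strand, and start 250 bases before the annotated start. Capitals mark the 50 bases from the annotated start onward. The Sparcl1 window is chr14:5937234-5937533 on the plus strand and the Sparc window is chr10:40038767-40039066 on the minus strand.
Sparcl1: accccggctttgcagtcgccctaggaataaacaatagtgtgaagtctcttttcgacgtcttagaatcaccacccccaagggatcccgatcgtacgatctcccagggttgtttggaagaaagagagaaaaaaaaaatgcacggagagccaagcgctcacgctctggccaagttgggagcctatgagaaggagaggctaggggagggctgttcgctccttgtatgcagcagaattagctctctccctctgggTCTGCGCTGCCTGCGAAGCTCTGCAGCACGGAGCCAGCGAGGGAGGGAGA
Sparc: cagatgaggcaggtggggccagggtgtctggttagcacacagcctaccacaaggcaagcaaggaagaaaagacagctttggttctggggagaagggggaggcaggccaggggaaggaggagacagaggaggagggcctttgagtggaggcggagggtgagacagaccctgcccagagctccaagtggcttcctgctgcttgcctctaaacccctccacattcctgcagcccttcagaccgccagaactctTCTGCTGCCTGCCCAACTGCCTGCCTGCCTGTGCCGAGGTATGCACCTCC
Neither window held a TATA box spelled TATAAA on either strand, which 14.2% of the 33469 promoters in the table did. The CCAAT box, searched on both strands by those letters, was absent from both windows and present in 37.5% of all promoters. The GC box GGGCGG was likewise absent from both windows, against a share of 33.1%. The G and C content was 55% for Sparcl1 and 61% for Sparc, against a median of 51.7% over all promoters. Of the 8 members, 7 were matched in the promoter table.

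Totals ran from 12.9 to 20.1 M (mega) counts a library. CPM (counts-per-million) below were scaled by TMM over all 24 libraries, and differences between genes in CPM are not compared, because transcript lengths were not used. Some libraries stood apart from their group. Mitochondrial transcripts took 17.8% of the counts of liver SAM 1 (other liver libraries 5.71 to 8.07%) and 8.18% of those of thymus Sham 15, and brain SAM 1 and SAM 2 held olfactory bulb markers summing to as much as 309 CPM against 14.4 to 17.4 in the other 4.

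Sparcl1 was far lower in the SAM 3 library than in any other library of the same tissue, in all 4 tissues. None of its 7 relatives was above all other libraries in SAM 3 in all 4 tissues. In brain, Sparcl1 had 34553, 34372 and 960 counts in SAM 1, 2 and 3, and 42113, 44956 and 50513 in Sham 13, 15 and 16. These counts correspond to 1495, 1625 and 62.3 CPM in the SAM libraries and to 1932 to 2225 CPM in the Sham libraries. SAM 3 therefore held 3.22% of the median of the other 5 brain libraries, with a 95% exact Poisson interval of 3.02 to 3.43% that covers its counting error only.

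In liver, Sparcl1 had 182, 291 and 14 counts in SAM 1, 2 and 3 and 308, 314 and 249 in Sham 13, 14 and 15. SAM 3 lay at 2.18 CPM and the other 5 libraries between 34.8 and 44.6 CPM, so that SAM 3 held 5.77% of their median (3.15 to 9.68%). In thymus, the counts were 1181, 12 and 1711 in SAM 1, 3 and 5 and 1900, 1801 and 1767 in Sham 14, 15 and 17. Here SAM 3 was lowest of all 24 libraries, at 0.464 CPM against 49.4 to 74.2 CPM in the other 5, which is 0.724% of their median (0.374 to 1.27%). In spleen, the counts were 1209, 48 and 844 in SAM 1, 3 and 5 and 1074, 1180 and 784 in Sham 14, 15 and 17. SAM 3 lay at 1.95 CPM against 38.0 to 54.4 CPM, or 4.37% of the median (3.22 to 5.79%).

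The nearest other library was many-fold above SAM 3 in each tissue. In liver the lowest of them was 15.9 times SAM 3, and the median of the other 5 libraries was 17.3 times SAM 3 there, with 31.0 times in brain, 22.9 times in spleen and 138 times in thymus. In bulk tissue, fewer cells of a type and less RNA per cell cannot be told apart.

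**Figure D1:**
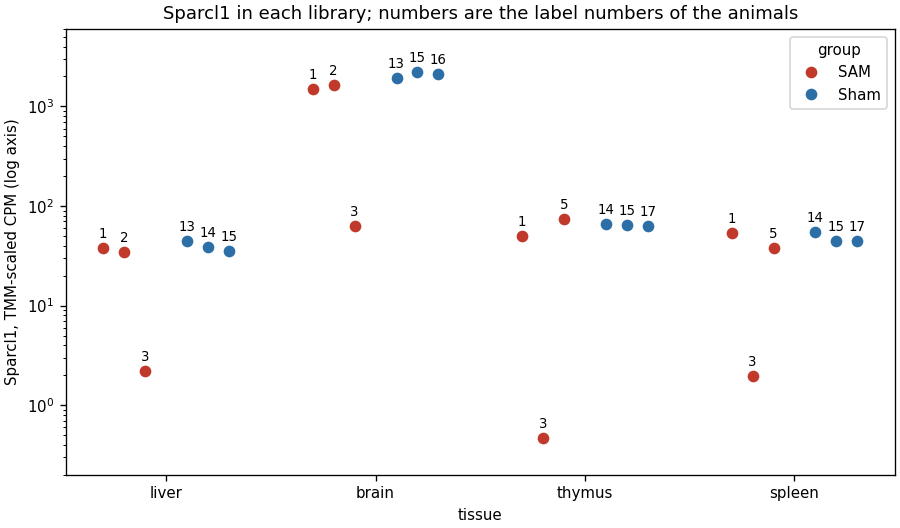
Sparcl1 in TMM-scaled CPM on a log axis for each of the 24 libraries, by tissue, with SAM in red, Sham in blue and the animal number above each point. In each tissue the point numbered 3 lies far below the other 5, at 62.3 CPM in brain, 2.18 in liver, 1.95 in spleen and 0.464 in thymus.

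The low values of SAM 3 set the SAM group's mean and spread. In liver Sparcl1 averaged 24.9 ± 19.8 CPM in SAM and 39.8 ± 4.47 in Sham (SD, n = 3 each). In thymus the means were 41.4 ± 37.5 and 64.3 ± 2.06 CPM, and in spleen 31.1 ± 26.4 and 47.8 ± 5.74 CPM (SD, n = 3 each). In none of these 3 tissues did SAM and Sham differ in edgeR's quasi-likelihood test after Benjamini-Hochberg adjustment. The log2 fold change was -0.66 ± 0.74 in liver (SE, edgeR adjusted p = 0.816), -0.64 ± 0.98 in thymus (edgeR adjusted p = 0.975) and -0.63 ± 0.77 in spleen (edgeR adjusted p = 0.967).

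Without SAM 3, Sparcl1 of the remaining SAM libraries overlapped the Sham range (liver, spleen) or lay on both sides of it (thymus). The log2 fold change became -0.11 ± 0.21 in liver (SE, edgeR adjusted p = 0.873), -0.06 ± 0.16 in thymus (edgeR adjusted p = 1.0) and -0.08 ± 0.16 in spleen (edgeR adjusted p = 0.995). In brain, where no test is given, the group means were 1061 ± 867 CPM in SAM and 2098 ± 150 in Sham (SD, n = 3 each), a log2 fold change of -0.94 ± 0.94. The log2 fold change was -0.39 ± 0.09 without SAM 3, and -5.04 when SAM 3 was the only SAM library. SAM 1 and SAM 2, at 1495 and 1625 CPM, were also below all 3 Sham brain libraries. They are the brain libraries with the olfactory bulb markers, and the part of that difference in their Sparcl1 values was not tested. The SAM minus Sham difference of Sparcl1 did not vary detectably between liver, thymus and spleen (interaction, edgeR adjusted p = 1.0). In each of these tissues that difference was set mostly by SAM 3, and the test does not compare how low SAM 3 was. The median of the other libraries was 17.3 times SAM 3 in liver, 22.9 times in spleen and 138 times in thymus. In the interaction test 0 of the 7 members tested passed, where 0.00615% of 16271 genes did and 675 had an unadjusted p under 0.05.

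Several sums of cell type markers also lay outside the range of the other libraries in the SAM 3 brain library, most of them above it. The summed level of 11 astrocyte markers, Gfap, Aqp4 and Slc1a3 among them, was 4759 CPM in SAM 3 and 3268 to 4055 CPM in the other 5 brain libraries, with 8 of the 11 above all other libraries and 0 below. Endothelial markers summed to 306 CPM in SAM 3 against 178 to 230, with 6 of the 6 found above all others. Mural cell markers summed to 188 CPM against 108 to 144, and red cell markers to 370 CPM against 112 to 166. Oligodendrocyte markers were lower, at 3235 CPM against 3804 to 5333, with 3 of 6 below all others. In liver, hepatic stellate markers summed to 212 CPM in SAM 3 against 246 to 333, with 3 of 5 below all others. Mural markers there summed to 38.5 CPM against 47.1 to 101, with 2 of 5 below all others. Liver hepatocyte markers were higher, at 353900 CPM against 282460 to 330335, and endothelial and fibroblast sums lay within the range of the others. In spleen, mural markers were higher in SAM 3, at 384 CPM against 298 to 370, and so were hepatic stellate markers, at 114 against 73.3 to 110. The part of these shifts in the Sparcl1 values was not tested.

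The neighbours of Sparcl1 on chromosome 14 with enough counts to read lay within, or just below, the range of the other libraries in SAM 3. Of the 5 nearest RefSeq genes on each side, in the order of GRCr8, 7 were in the count table. Nudt9, a nucleotide hydrolase, was at 41.8 CPM in brain SAM 3 and 38.2 to 44.6 in the other 5, at 17 against 16 to 18.5 in thymus, at 24.0 against 22.7 to 26.1 in spleen and at 69.4 against 55.2 to 95.1 in liver. Hsd17b11, a lipid droplet dehydrogenase, was also within the range of the others in every tissue, at 27.6 CPM in brain against 21.6 to 29.1 and at 913 in liver against 661 to 1101. Hsd17b13 in liver was at 351 CPM against 341 to 447. Klhl8 lay just below the others in spleen, at 22.2 against 23.3 to 26.0 CPM, and within their range elsewhere. Dspp, Dmp1 and Ibsp, genes of the mineralised tissue matrix, had few counts (at most 79 in any library).

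The question whether a relative was higher where Sparcl1 was very low was asked of every relative in every tissue where its median over the 6 libraries was at least 1 CPM. There were 21 such cases, and in 17 of them SAM 3 lay within the range of the other 5 libraries. SAM 3 was above all others in 2 cases and below all others in 2, and its level ran from 58.4 to 164% of the median of the others. In spleen it was above that median for every relative counted (Sparc 131%, Spock2 121%, Smoc1 164%, Smoc2 124%, Fstl1 128%). In thymus it was below for every one (Sparc 83.9%, Smoc1 58.4%, Smoc2 87.3%, Fstl1 94.8%) but Spock2 (105%). Liver and brain went both ways, with Fstl1 at 64.1% in liver and 131% in brain. No relative was above all other libraries in all 4 tissues, and none in brain. For comparison, SAM 1 was the highest of 6 in 3 of its 21 cases and the lowest in 10, and Sham 15, also with a library in every tissue, was highest in 2 and lowest in 2.

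Smoc1 was the relative that lay above all other libraries in SAM 3, in liver and in spleen. In liver it was at 64.8, 117 and 145 CPM in SAM 1, 2 and 3 and at 105, 125 and 134 CPM in Sham 13, 14 and 15. SAM 3 was thus above the others by a small margin. In spleen it was at 1.72, 2.0 and 1.21 CPM in SAM 1, 3 and 5 and at 1.17, 1.46 and 0.971 CPM in the Sham libraries, a low level that rests on 49 counts in SAM 3. In thymus Smoc1 of SAM 3 was at 0.735 CPM, inside a range of 0.388 to 2.92 CPM, and in brain at 10.8 CPM, between the Sham libraries and the other SAM libraries.

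Sparc, the closest relative of Sparcl1, went both ways. In brain it was at 451, 427 and 405 CPM in SAM 1, 2 and 3 and at 344, 297 and 307 CPM in Sham 13, 15 and 16. All SAM libraries were above all Sham libraries, and SAM 3 was the lowest of the SAM libraries. In thymus Sparc was lowest in SAM 3, at 94.6 CPM against 103 to 119 in the others. In liver it was at 139 CPM in SAM 3 and 126 to 172 in the others, and in spleen at 451 CPM against 318 to 464.

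Fstl1 followed a like pattern in brain, with 27.2, 30.3 and 29.8 CPM in SAM 1, 2 and 3 against 18.8, 19.9 and 22.8 in Sham 13, 15 and 16. SAM 3 exceeded every Sham library for Sparc and Fstl1, and so did SAM 1 and SAM 2, in which Sparcl1 was not very low. These libraries differ in make-up: SAM 1 and SAM 2 held the olfactory bulb markers, and SAM 3 had the highest endothelial and mural marker sums. The part of that in the Sparc and Fstl1 values was not tested. The testicans were not raised in the SAM 3 brain. Spock1 was at 114 CPM in SAM 3, 47.8 and 51.9 in SAM 1 and 2, and 122 to 139 in Sham. Spock2 was at 201 CPM in SAM 3, 134 and 149 in SAM 1 and 2, and 207 to 254 in Sham. Spock3 was below all other brain libraries, at 56.2 CPM against 63.6 to 92.8.

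**Figure D2:**
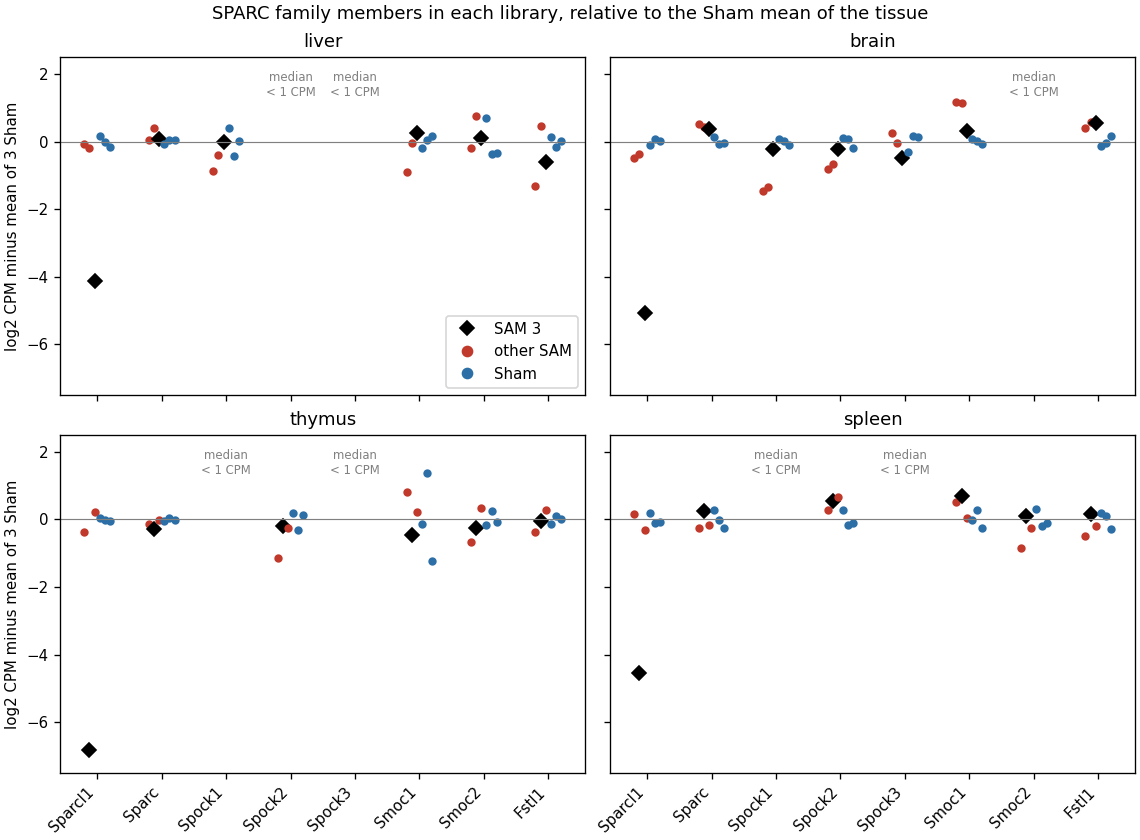
Log2 CPM of each member in each library minus the mean of the 3 Sham libraries of the tissue, with SAM 3 as black diamonds, other SAM libraries in red and Sham in blue; members with a median under 1 CPM are marked and not drawn. Only the Sparcl1 diamonds leave the cloud, by 4 to 7 log2 units downward, and no relative shows an upward step of that size.

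Across all 24 libraries, each taken as its deviation from the Sham mean of its tissue, the correlation of Sparcl1 with its relatives ran from -0.087 (Smoc2) to 0.169 (Spock2), Pearson's r as a description. The 4 SAM 3 libraries, where Sparcl1 deviated by -4.12 to -6.82, weigh most in these values. For the relatives, r was not computed without them. The genes most like Sparcl1 by the same measure were sought among the 13945 genes with a symbol that averaged 1 CPM or more in brain. Genes below that level in brain were not compared. The most alike were AABR07001512.1 (r = 0.778), Sv2a, a synaptic vesicle glycoprotein (0.713), Acaa2, a mitochondrial thiolase of fatty acid oxidation (0.705), Pex13, a peroxisome import factor (0.681), Kyat3, a kynurenine aminotransferase (0.658), and Aldh1b1, a mitochondrial aldehyde dehydrogenase (0.648). The 4 libraries numbered 3 carried most of these values. Over the other 20 libraries r was -0.423, -0.329, -0.344, 0.695, 0.164 and -0.324 in the same order. AABR07001512.1 and Acaa2 were below all other libraries in SAM 3 in all 4 tissues, Acaa2 with 542 against 1092 to 1945 CPM in liver and 14.1 against 15.6 to 27.2 CPM in brain. Aldh1b1 was at 0.851 CPM in thymus SAM 3 against 6.19 to 8.39, but in liver at 443 CPM against 201 to 273.

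The comparison of exposed with sham rats asked whether any member changed with exposure. None did at an adjusted p of 0.05: the counts were 0 of 6 members tested in each of liver, thymus and spleen, where the share of all genes called was 0% too. An unadjusted p under 0.05 was reached by 327 of 12130 genes in liver, 922 of 15036 in thymus and 597 of 14530 in spleen. DESeq2 called 2, 102 and 7 genes of all kinds. Spock3 had too few counts to be tested in these tissues, Spock1 in thymus and spleen, and Spock2 in liver.

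In liver Sparc was the member whose groups did not overlap, 1 of 6, where 10.8% of all genes did so. It was at 135, 172 and 139 CPM in SAM 1, 2 and 3 and at 126, 134 and 134 CPM in the Sham libraries, which gave a log2 fold change of 0.19 ± 0.15 (SE, edgeR adjusted p at least 0.802 for every member). Fstl1 was at 8.73, 30.6 and 14.3 CPM in SAM and 24.2, 19.8 and 22.4 in Sham, so SAM libraries lay on both sides of Sham (log2 fold change -0.28 ± 0.40). Fstl1 and Smoc1 were both lowest in SAM 1, the library with the high mitochondrial share, and without it their fold changes were 0.03 and 0.11. The median of the members was -0.21, beside 0.02 over all genes tested.

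In thymus no member's groups lay apart, where 11.9% of all genes did. All 6 tested members had a negative log2 fold change, with a median of -0.15 beside -0.001 over all genes. Cell type markers also separated the thymus groups. Summed thymic epithelium markers reached only 305 to 367 CPM among SAM libraries, while Sham libraries held 573 to 605 CPM. Hepatic stellate markers were likewise lower, at 20.1 to 25.7 against 30.7 to 32.5 CPM. Endothelial, mural and fibroblast sums overlapped between the groups. Whether these marker differences contribute to the values of the members was not tested. Spock2, at 10.3, 20.1 and 19.2 CPM in SAM and 26.2, 18.3 and 25 in Sham, had the most negative value of the relatives (-0.49 ± 0.24, SE). Smoc1 ranged from 0.388 to 2.92 CPM among the Sham libraries alone. Its log2 fold change of -0.14 became 0.97 without Sham 15, and 0.16 without SAM 3.

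In spleen the groups of no member lay apart on the scaling within the tissue, where 9.22% of all genes did so. Spock2 was at 1.33, 1.59 and 1.75 CPM in SAM and 1.32, 0.937 and 0.971 in the Sham libraries, which gave a log2 fold change of 0.53 ± 0.24 (SE, edgeR adjusted p = 0.967). On these CPM, scaled over 24 libraries, the lowest SAM value of Spock2 (1.325) lay just above the highest Sham value (1.318), so whether its groups overlap depends on the scaling. Sparc was at 321, 451 and 343 CPM in SAM and 464, 380 and 318 in Sham, and the groups overlapped (-0.06 ± 0.17, SE). Smoc2 was lowest in SAM 1, at 6.94 CPM, and at 10.5 to 15.4 CPM in the other 5 libraries.

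**Figure D3:**
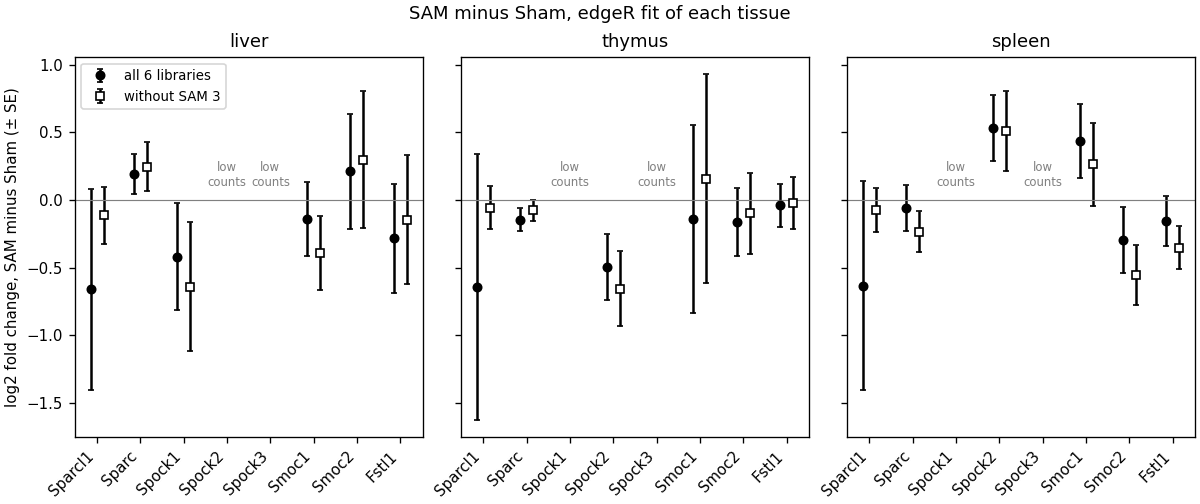
Log2 fold change of SAM minus Sham with its standard error from the edgeR fits of liver, thymus and spleen, for all 6 libraries (filled circles) and without SAM 3 (open squares). Sparcl1 moves from between -0.66 and -0.63 to near 0 and its error bars shrink, and every other member drawn lies within about 0.7 of 0.

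In brain, read as description, the groups did not overlap for 6 of the 8 members, where 23.8% of all 15126 genes did so and 0% passed the adjusted test (3108 had an unadjusted p under 0.05). Sparc, Smoc1 and Fstl1 were higher in all SAM libraries, by 0.48 ± 0.10, 0.98 ± 0.24 and 0.55 ± 0.10 on the log2 scale (SE). Sparcl1, Spock1 and Spock2 were lower, the testicans at -0.85 ± 0.33 and -0.52 ± 0.17. The SAM libraries were not alike: Spock1, Spock2 and Smoc1 were furthest from Sham in SAM 1 and SAM 2, the libraries with the olfactory bulb markers. With SAM 3 as the only SAM library the values were -0.18 for Spock1, -0.20 for Spock2, 0.35 for Smoc1 and -0.46 for Spock3. Smoc2 had at most 41 counts in a brain library, and its value of 0.23 ± 0.59 ran from -0.12 without Sham 15 to 1.25 without Sham 16. The part of the marker differences in these values was not tested.

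The sham rats show where each member is transcribed. Over the 12 Sham libraries, 38 of the 48 differences between pairs of tissues passed edgeR's test, adjusted over all genes and all 6 pairs. That share has to be read against the whole table, of which 81.2% of 17204 genes passed between liver and brain, 77.3% between liver and thymus, 76.2% between liver and spleen, 82.2% between brain and thymus, 82.1% between brain and spleen and 63.8% between thymus and spleen. Liver levels depend on the scaling, since library totals alone shift the liver contrasts by -1.73 to -1.44 log2 units in the median gene.

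Sparcl1 was highest in brain, followed by thymus, spleen and liver, at 2098 ± 150, 64.3 ± 2.06, 47.8 ± 5.74 and 39.8 ± 4.47 CPM (SD, n = 3). Brain exceeded thymus by 5.02 ± 0.14 on the log2 scale, and spleen by 5.45 ± 0.14 (SE), and liver minus brain was -5.69 ± 0.14. Thymus exceeded spleen by 0.43 ± 0.12 (edgeR adjusted p = 0.00438), and spleen and liver were not separated (edgeR adjusted p = 0.0886). Liver minus spleen, -0.24, did pass without liver Sham 13 (-0.33), without spleen Sham 14 (-0.40) and in DESeq2 (-0.28). The SAM 3 brain library, at 62.3 CPM, was at the level of a sham thymus.

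Sparc was more even. Sham spleen had 387 ± 73.6 CPM, brain 316 ± 24.7, liver 131 ± 4.80 and thymus 114 ± 3.86 (SD, n = 3). Brain minus spleen was -0.30 ± 0.12 on the log2 scale (SE) and passed narrowly (edgeR adjusted p = 0.0374), a call that was lost with DESeq2's size factors in edgeR (RLE, adjusted p = 0.372), in DESeq2 (adjusted p = 0.473) and on leaving out brain Sham 15 or 16 or spleen Sham 14 or 15, where brain minus spleen ran from -0.32 to -0.15. Liver and thymus were not separated (edgeR adjusted p = 0.112).

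The testicans were highest in brain. Spock1 was at 132 ± 8.47 CPM in sham brain and 2.46 CPM in sham liver, and liver minus brain was -5.73 ± 0.20 on the log2 scale (SE). It had 0 counts in all 6 spleen libraries, so brain was at least 906-fold higher when spleen is set to a floor of 3 counts a library. Spock3 was at 79.4 ± 13.7 CPM in brain, had 0 counts in all 6 liver libraries (at least 192-fold lower than brain by the same floor) and at most 10 counts in any thymus or spleen library. Spock2 had 237 ± 26.3 CPM in brain and was the testican with a clear second tissue, thymus, at 23.2 ± 4.25 CPM. Thymus exceeded spleen by 4.44 ± 0.20 and lay 3.35 ± 0.15 below brain on the log2 scale (SE), and spleen and liver, at about 1 CPM, were not separated (edgeR adjusted p = 0.899).

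The Smoc genes peaked in different organs. Smoc1 was highest in liver, at 121 ± 14.7 CPM in sham liver and 8.68 ± 0.445 in brain, a log2 difference of 3.83 ± 0.33 (SE). Thymus and spleen had 1.42 ± 1.33 and 1.20 CPM and were not separated (thymus minus spleen 0.21, edgeR adjusted p = 0.724). Without thymus Sham 15 the difference turned to -0.87 and passed (edgeR adjusted p = 0.0260). Smoc2 was highest in spleen and thymus, at 12.7 and 11.6 CPM, which were not separated (edgeR adjusted p = 0.769), then liver at 4.31 and brain at 0.862 CPM. Liver exceeded brain by 2.30 ± 0.49 on the log2 scale under TMM, and by 0.86 with library totals alone, where the call was lost.

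Fstl1 varied least. It was at 29.0 CPM in sham spleen, 22.1 ± 2.19 in liver, 20.5 ± 2.04 in brain and 15.3 in thymus. Liver minus spleen was -0.37 ± 0.14 (SE, edgeR adjusted p = 0.0241), liver and brain were not separated (edgeR adjusted p = 0.372), and brain exceeded thymus by 0.41 ± 0.13 (edgeR adjusted p = 0.0112). The step between spleen and liver did not pass without liver Sham 14 (-0.30) or spleen Sham 15 (-0.34), nor that between brain and thymus without brain Sham 16 (0.33) or with library totals alone (0.12).

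**Figure D4:**
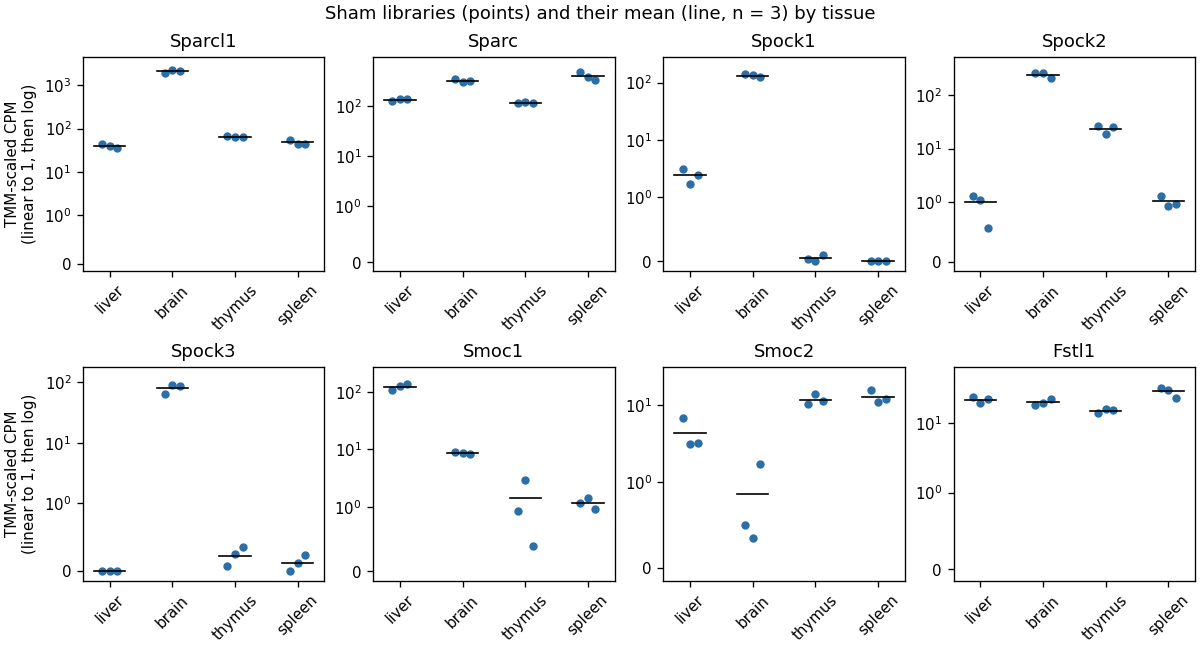
TMM-scaled CPM of each member in the 3 Sham libraries of each tissue (points) with their mean (line), on an axis that is linear to 1 CPM and logarithmic above. By their means, Sparcl1 and the 3 Spock genes are highest in brain, Smoc1 in liver, and Sparc, Smoc2 and Fstl1 in spleen. Spleen was not separated from thymus for Smoc2, and its call against brain for Sparc depended on the processing.

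Genes that act with the family were counted from lists of binding partners and related matrix genes. None of the members of these lists passed in a SAM against Sham comparison in any tissue. The share of all genes called was 0% in each tissue too, so this count says nothing particular to the lists. Between sham brain and spleen, where 41.2% of all genes were called higher in brain and 40.9% higher in spleen, the lists differed in direction. Of the synapse-forming factors of astrocytes and the proteins they act on, 10 of 10 were higher in brain, with Nlgn2, a synaptic adhesion protein, at 3.47 on the log2 scale and Cacna2d1, a calcium channel subunit and thrombospondin receptor, at 5.82. Gpc4, a glypican secreted by astrocytes, was higher by 0.89, but sham liver exceeded brain in Gpc4 by 3.23. The count depends on the pair. Of these 10, 9 were called higher in brain than in thymus, where 82.2% of all genes were called in either direction. In brain against liver 8 were called higher in brain, where 81.2% of all genes were called in either direction. The shares by direction were not counted for these pairs. Of the receptors, uptake proteins and proteases of SPARC, 1 of 10 tested was higher in brain and 9 were higher in spleen. The 4 with the lowest p over all tissue pairs, not all of them among the largest differences here, were the integrin chains Itga5 (-2.31) and Itgb1 (-1.80), the adhesion molecule Vcam1 (-3.69) and the membrane protease Mmp14 (-1.88).

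Of 5 collagen chains bound by SPARC, 4 were higher in spleen, among them Col3a1 (-3.18) and the basement membrane chains Col4a1 (-2.64) and Col4a2 (-1.04), and Col5a1 was higher in brain (1.45). Of 16 other matricellular genes tested, 5 were higher in brain and 9 in spleen. Tnr, a tenascin of the central nervous system, was higher in brain (14.17, a fitted value that depends on the prior count), while Fbln5 (-5.66), an elastic fibre protein, Tnxb (-2.55) and Postn (-0.71) were higher in spleen. On the BMP and activin side, 6 of 10 were higher in brain, among them Dip2a, a reported receptor of Fstl1 (2.93), the receptor Bmpr2 (2.58) and the activin subunit Inhba (4.42), and 3 were higher in spleen, Bmp2 (-3.71) among them.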

How the data were processed

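The deposited values are raw gene counts, 1 column for each of 24 libraries, all used. STAR 2.2.1 and the build rn6 are named, with no role, per the submitters' processing notes. Per the labels' protocols, the libraries came from a stranded mRNA kit. Which program counted the reads, with what strand setting and annotation, is not given in the sources used here. Overlapping genes may therefore share reads. From the counts, edgeR 4.0.16 (R 4.3.3) filtered low genes with filterByExpr, scaled libraries by TMM and ran the quasi-likelihood test with Benjamini-Hochberg adjustment, within each tissue for SAM against Sham, and in 1 fit of 12 Sham libraries for the 6 tissue pairs. The interaction used the 18 liver, thymus and spleen libraries. Log2 CPM used a prior count of 2. DESeq2 1.42.0 was an alternative. The scripts were tested on simulated data. Members, lists and tests were chosen with earlier results of these data known. All 8 members, up to 4 called genes a list by lowest p, the 6 genes most like Sparcl1 and its neighbours are named, except 1 gene that is not reported here. Equal animal numbers were not used to pair the tissues in the main fits. Of 25 same-numbered pairs of libraries, 2 had a correlation of deviations over 0.1 (all from -0.011 to 0.165). Differently numbered pairs were not compared, so these values do not settle whether 1 number is 1 rat.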

Additional observations from a re-analysis of the deposited data

How the results depend on the processing

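No member was called in a SAM against Sham comparison of liver, thymus or spleen under any alternative run, and the 38 called tissue differences became 37 to 42 under other scalings, tools and filters, 34 in the SAM libraries and 36 to 40 when 1 library was left out. With the animal number as a replicate block 37 were called, without Sparc in brain minus spleen (adjusted p = 0.107) and Fstl1 in brain minus thymus (0.19, adjusted p = 0.334) and with Spock3 in liver minus thymus (adjusted p = 0.0337), and 0 members passed the interaction test; no paired analysis was possible for SAM against Sham because the groups share no number. The brain value of Sparcl1, -0.94, was -5.04 without SAM 1 and SAM 2 and ran from -1.39 to -0.39 leaving out 1 library. Of the 6 genes most like Sparcl1, 0 stayed among the top 6 over the 20 libraries not numbered 3, an alternative chosen after seeing the data, as were library totals alone for the tissue differences. Directions turned for Fstl1 between liver and brain (0.14), to -0.069 with RLE, -0.074 with DESeq2, -1.30 with library totals and -0.93 in the SAM libraries. Library totals turned liver minus thymus to -1.51 for Sparc and -1.18 for Fstl1, and thymus minus spleen to 0.058 for Smoc2. In the SAM libraries brain minus spleen was 0.23 for Sparc and 0.19 for Fstl1, and thymus minus spleen -0.32 for Smoc1 and 0.046 for Smoc2. Leaving out 1 library turned SAM against Sham within -0.39 to 0.11 (Smoc1), -0.094 to 0.69 (Smoc2) and -0.90 to 0.032 (Fstl1) in liver, -0.59 to 0.97 (Smoc1), -0.47 to 0.040 (Smoc2) and -0.21 to 0.10 (Fstl1) in thymus, and -0.23 to 0.092 (Sparc) in spleen. Among Sham tissues the ranges that crossed 0 were -0.13 to 0.22 (Fstl1, liver minus brain), -0.068 to 0.25 (Sparc, liver minus thymus), -0.28 to 0.20 (Spock2, liver minus spleen), -0.87 to 0.66 (Smoc1) and -0.25 to 0.069 (Smoc2, both thymus minus spleen). The cause was not tested. Members under 1 CPM rest on few counts.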

Other observations

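Among 10688 genes with at least 1 CPM in every tissue, 3 animal numbers have a library in all 4 tissues. SAM 3 was the lowest of 6 in all 4 tissues for 12 genes and the highest for 6. The same counts were 56 and 38 for SAM 1, and 12 and 12 for Sham 15. At 10-fold or more below the median of the other 5 libraries in every tissue there was 1 gene in SAM 3, Sparcl1, whose smallest fold was 17.3 (liver), and 0 in SAM 1 and in Sham 15. The next genes of SAM 3 by that measure were RGD1359290 at 1.78-fold, AABR07001512.1 at 1.78-fold, Acaa2 at 1.62-fold and Mtmr11 at 1.42-fold. At 2-fold or more below in every tissue there was 1 gene in SAM 3, 0 in SAM 1 and 1 in Sham 15. Sparcl1 was singled out for its brain value in SAM 3, which is part of these counts.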
